A study of Mus musculus with 12 samples.

Results

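The probes described here were chosen by their detection in wild-type hearts: they lay well above background on each of 3 arrays of infarcted left ventricles and on none of 3 arrays of sham-operated ones. Of 59064 probes whose design ID starts with ASMM, 348 (0.589%) met this rule, and they are called the newly detected probes below. The reverse pattern, detected on all 3 wild-type sham arrays and on no wild-type infarction array, was met by 57 probes (0.0965%). Well above background is the yes-or-no flag that the scanner software sets for each spot, and every ASMM probe has 1 spot.

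The samples were 12 independent left ventricles of male C57BL/6J mice, 3 in each of 4 groups, harvested when 4 weeks had passed since surgery, which was either a sham operation or the induction of myocardial infarction (MI). Wild-type (WT) sham mice were 13 to 14 weeks old, as were WT MI mice. The other groups were sham and MI mice with a systemic knockout (KO) of Miat, aged 15 to 16 weeks after sham surgery and 16 weeks after MI, so age did not overlap between the genotypes. RNA freed of ribosomal RNA was copied by random priming into Cy3-labelled cRNA, and each ventricle had its own 1-colour array of 62939 spots, whose probes lie in an exon or at a splice junction of the transcript they stand for. All ventricles are bulk tissue, in which more cells of a type and more RNA per cell cannot be told apart.

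Myocardial infarction kills heart muscle downstream of a blocked coronary artery, and over the following weeks the dead muscle is replaced by a scar. During this remodelling inflammatory cells, fibroblasts and vessels change in number and state, and surviving cardiomyocytes return to a partly fetal programme of transcription. Long noncoding RNAs, which are transcribed like messenger RNAs but not translated into protein, are usually present at low levels, so that many lie near the limit of what an array detects. Miat, short for myocardial infarction associated transcript, is one of them.

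None of the 59064 ASMM probes is paired with a transcript in the files (0 of 59064), and the probe sequences were not used here. The newly detected probes are therefore given by ID, and no gene, protein or genome position is attached to them. Among the other probes of the array, 15 carry transcript accessions, and none of the 23 marker genes looked up for heart cell types was among them, so the tissue label and the knockout were not checked against gene levels.

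The arrays carried 2 scan dates, and arrays that shared a date are called a slide here. Slide membership was read from the scan date alone. Slide 1 held all WT MI and KO MI arrays with KO sham replicates 2 and 3, and slide 2 held all WT sham arrays with KO sham replicate 1. In WT the slide and the surgery therefore cannot be told apart. Across the 12 arrays 83.2% to 88.6% of ASMM probes were well above background, and no non-control spot was saturated. The lowest signal that counted as well above background was 20.3 to 24.6 on the WT sham arrays, 16.8 to 20.3 in WT MI, 12.7 to 16.7 in KO sham and 17.9 to 19.3 in KO MI, in scanner units. In these units the WT sham limits were at or above those of WT MI and the KO sham limits were the lowest, but on the log2 scale used for levels the lowest was that of WT MI replicate 2, at -4.77. Their part in the detection counts was not tested beyond the common limit given below.

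The newly detected probes were dim in all groups. Levels are given as the log2 of the processed signal minus the 75th percentile of the same array, so that 0 is the 75th percentile and each unit is a 2-fold step. In WT MI the mean level of a newly detected probe had a median of -3.67, quartiles of -3.96 and -3.30 and a range of -4.31 to 0.33, against a median of -1.75 for all ASMM probes. Only 7 of the 348 (2.01%) lay above that median of all ASMM probes. In WT sham the same probes had a median of -4.80, while the detection limits of those arrays lay between -4.52 and -4.25 on this scale.

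On the single arrays, the median of the 348 probes was -4.79, -4.82 and -4.74 in WT sham replicates 1 to 3 and -3.84, -3.40 and -3.87 in WT MI replicates 1 to 3. It was -4.49, -4.52 and -4.75 on the KO sham arrays and -4.28, -4.59 and -4.28 on the KO MI arrays. The KO arrays of both surgeries lay between both WT groups, except that KO sham replicate 3 reached down to the WT sham values, and the 2 KO groups overlapped. Averaged over arrays these medians were -4.78 ± 0.04 in WT sham, -3.70 ± 0.26 in WT MI, -4.59 ± 0.14 in KO sham and -4.38 ± 0.18 in KO MI (SD, n = 3 each). The WT values describe the choice of probes and were not tested.

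Each difference between WT MI and WT sham is given as a lower bound, since no WT sham array detected these probes. The mean of the WT MI arrays was set against the mean of, per WT sham array, the higher of the limit and the probe's own value. Some probes that were not flagged lay at or above the limit all the same, 12 of the 348 on WT sham replicate 1. The bound had a median of 1.61-fold and ran from 1.03-fold to 25.8-fold. It was under 1.5-fold for 150 of the 348 probes (43.1%), over 2-fold for 100 (28.7%) and over 4-fold for 17 (4.89%). The label "switched on" is not borne out for most of them, because a weaker flag of the same software, positive and significant against the local background, was already set on all 3 WT sham arrays for 320 of the 348 probes (92.0%) and on none for 1 probe. They are therefore described as newly detected and not as newly transcribed.

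Probes just inside the threshold show how narrow the margin was. The lowest mean in WT MI belonged to ASMM10P013308, at -4.19, -4.54 and -4.20 in WT MI replicates 1 to 3 and -5.31, -4.79 and -4.31 in WT sham. Next lowest was ASMM10P023575, at -3.98, -4.69 and -4.21 in WT MI and -4.22, -4.46 and -4.32 in WT sham, where the arrays of both groups overlap. Just outside the rule lay 583 probes that were not detected in WT sham but were detected on 2 of 3 WT MI arrays, with medians of -4.99 in WT sham and -4.24 in WT MI.

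The number of probes that met the rule depended on single arrays. It rose from 348 to 629 without WT sham replicate 2, whose limit was the lowest of its group, and to 770 without WT MI replicate 3, whose limit on the log2 scale was the highest of its group. The reverse set rose from 57 to 112 without WT sham replicate 1, to 116 without WT sham replicate 3 and to 160 without WT MI replicate 2. With 1 common limit of -4.25 for all 12 arrays, the highest of the 12 limits, 358 probes were newly detected and 150 showed the reverse, so that newly detected probes remained the larger set while the reverse set grew. With the weaker flag the counts were 153 and 24. Among 308 negative control spots, of which 2 to 9 were well above background per array, 0 met the rule in either direction.

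The strongest newly detected probes differed widely between WT MI hearts. ASMM10P053276, the brightest in WT MI, lay at 1.61, -1.95 and 1.32 in WT MI replicates 1 to 3 and at -5.18, -5.04 and -6.39 in WT sham. ASMM10P001257, the second brightest, lay at 0.84, -2.99 and 0.72 in WT MI and at -5.89, -6.06 and -6.42 in WT sham. Replicate 2 was the lowest WT MI array for both, by more than 3 log2 units. Such a pattern was not the rule: WT MI replicate 2 was the highest of its group for 237 of the 348 probes (68.1%) and the lowest for 66 (19.0%). The median SD between WT MI replicates was 0.38 over the newly detected probes and 0.23 over all ASMM probes. This gap was not particular to WT MI: the values were 0.27 and 0.12 in WT sham, 0.36 and 0.18 in KO sham and 0.38 and 0.15 in KO MI.

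In the knockout the 348 probes were detected in part after either surgery. Of the 348 probes, 200 (57.5%), 180 (51.7%) and 101 (29.0%) were well above background on KO sham replicates 1 to 3, and 208 (59.8%), 169 (48.6%) and 210 (60.3%) on KO MI replicates 1 to 3. The mean was 160.3 ± 52.3 probes in KO sham and 195.7 ± 23.1 in KO MI (SD, n = 3 each), and the arrays of both groups overlapped. KO sham replicate 3 had the fewest detected probes, and KO sham replicate 1, the only KO array on slide 2, the most of its group. Above the common limit of -4.25, which removes the differences between the arrays' own limits, the numbers were 128, 114 and 64 in KO sham and 165, 101 and 170 in KO MI.

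Across the 6 KO arrays the 348 probes did not behave as one set. Of them, 52 (14.9%) were detected on no KO array and 50 (14.4%) on all 6. On all 3 KO MI arrays 95 were detected and on none 72; on all 3 KO sham arrays 72 were detected and on none 102. Without KO MI replicate 2, 157 were detected on the remaining KO MI arrays, and without KO sham replicate 3, 138 were detected on the remaining KO sham arrays. Among the 100 probes with a bound over 2-fold in WT, 31 were detected on all KO MI arrays and 16 on all KO sham arrays. Detection on more KO MI than KO sham arrays was seen for 130 probes, on equally many for 166 and on fewer for 52. The same counts over all ASMM probes are not given, so these have no background. Of the 7638 ASMM probes not detected in WT sham, 17.3%, 16.2% and 8.54% were detected on KO sham replicates 1 to 3. On KO MI replicates 1 to 3 it was 13.7%, 15.0% and 12.1%, so KO sham replicate 3 was the lowest there too.

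The probes detected on all 6 KO arrays were the brightest in WT sham, with a median of -4.52 there, -3.87 in WT MI, -3.99 in KO sham and -3.94 in KO MI. The 52 probes detected on no KO array had a median of -5.20 in WT sham and -3.52 in WT MI, and of -5.72 in KO sham and -5.36 in KO MI. The latter set was thus brighter than the former in WT MI and dimmer in the other 3 groups. Both sets were sorted by detection on the KO arrays, so their order in KO sham and KO MI was built in.

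Detection on the KO arrays rose with the number of WT MI arrays on which a probe was detected, on sham and MI arrays alike. Among the 7638 ASMM probes not detected in WT sham, 5175 were detected on no WT MI array, and between 4.25% and 9.18% of these were detected on a KO sham array and between 4.85% and 8.02% on a KO MI array. Of the 1532 detected on 1 WT MI array, mostly replicate 2 (1246 probes), 12.6% to 25.9% were detected on a KO sham array and 16.2% to 22.3% on a KO MI array. The 583 detected on 2 WT MI arrays gave 23.7% to 44.9% and 37.6% to 38.8%. The same steps ran along the level in WT sham, whose median was -6.36, -5.36, -4.99 and -4.80 for probes detected on 0, 1, 2 and 3 WT MI arrays; its part in the KO detection was not tested.

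When the rule was applied to the KO arrays alone, 32 ASMM probes (0.0542%) were detected on all 3 KO MI and on no KO sham array, and 41 (0.0694%) showed the reverse. These counts share no array with the WT sets. In WT the newly detected probes outnumbered the reverse set, 348 against 57, whereas in the knockout they were the smaller set; the difference between genotypes was not tested, and in the knockout the order changed with single arrays. Both KO counts rose whichever of the 6 arrays was left out, to between 61 (without KO sham replicate 3) and 121 (without KO sham replicate 2) newly detected, and to between 62 (without KO sham replicate 2) and 157 (without KO sham replicate 3) no longer detected. The counts without the other arrays were 97 and 92 (KO sham replicate 1), 82 and 77 (KO MI replicate 1), 112 and 130 (KO MI replicate 2) and 99 and 77 (KO MI replicate 3). Leaving out KO sham replicate 1 keeps the comparison within slide 1. The remaining KO sham mice were 15 weeks old and all KO MI mice 16, so within slide 1 age and surgery cannot be told apart. With the common limit the order turned too, with 61 newly and 37 no longer detected.

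The rule was met in both genotypes by 4 probes, 1.15% of the 348 in WT, where 0.0542% of all ASMM probes met the KO rule, and 12.5% of the 32 in the knockout, where 0.589% of all met the WT rule. Within slide 1, 12 probes were shared, 3.45% of the WT set and 12.4% of the KO set, which held 97 of the 59064 ASMM probes. Also within slide 1, 4 of the 348 (1.15%) were among the 92 probes no longer detected in KO MI. The reverse set shared 1 of its 57 probes with the 97 and 0 with the 92. In the opposite direction, 2 of the 348 probes (0.575%), 4.88% of the 41, were detected on all KO sham and no KO MI array, against 0.0694% of all ASMM probes. The reverse set shared 0 of its 57 probes with either KO set, but so small a set cannot resolve shares of 0.0542% and 0.0694%. On each array 83.2% to 88.6% of ASMM probes were well above background, and a probe detected on every array can meet neither rule. The shares over all ASMM probes are thus low by construction beside those of probes near the limit. Shares over the probes not detected in WT sham are not given, so whether the 348 exceed other near-limit probes was not tested.

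Of the 4 shared probes, ASMM10P042126 had the largest measured difference of KO group means, although its KO sham level is known only to lie under the limit. It lay at -6.95, -6.94 and -6.76 on the KO sham arrays and at -3.38, -3.94 and -3.42 on the KO MI arrays, and at -6.58, -6.75 and -6.59 in WT sham against -2.46, 0.03 and -0.90 in WT MI. The MI arrays lay above the sham arrays in both genotypes, as the choice of this probe required of detection. Its lower bound was 9.50-fold in WT and 1.99-fold in the knockout, below the 2.89-fold of the next probe, and the KO difference of group means was 3.30 (SE 0.47), from 0.48 under normexp to 3.79 over the alternatives. The adjusted p was 0.41 in limma (unadjusted 2.3e-05), so the difference did not pass the threshold of 0.05. This probe and the next were chosen by the size of this same KO difference, so their p-values are no independent support. Across the 26 alternatives the adjusted p ran from 0.004 to 0.7, and it passed in 3 of them: a fit of the KO arrays alone, one without WT MI replicate 1 and one with gene-by-gene array weights.

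ASMM10P008085 was the second of these probes. It lay at -5.86, -5.77 and -5.93 in KO sham and at -3.87, -2.25 and -3.0 in KO MI, with WT sham at -5.21, -6.71 and -5.53 and WT MI at -1.47, 1.23 and -1.34. WT MI replicate 2 and KO MI replicate 2 were the highest of their groups. The KO lower bound was 2.89-fold, and the difference of 2.81 (SE 0.67) had an adjusted p of 0.42 in limma, with a range of 0.023 to 0.81 over the alternatives and of 0.62 (normexp) to 3.23 in the difference; it passed with array weights only.

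The other two, named because so few were shared and not by a rule set beforehand, were close to the limit. ASMM10P006591 lay at -4.68, -4.97 and -5.45 in KO sham and at -3.82, -4.48 and -4.28 in KO MI. ASMM10P053774 lay at -4.99, -4.66 and -4.50 in KO sham and at -4.02, -4.23 and -3.83 in KO MI. The lower bounds were 1.30-fold and 1.46-fold. Those that went the opposite way in the knockout were as close to it. ASMM10P000960 went from -3.51, -4.21 and -4.26 in KO sham to -5.35, -4.65 and -4.71 in KO MI. ASMM10P017764 went from -4.37, -4.44 and -4.31 to -4.67, -4.89 and -4.56. In each the sham arrays lay above the MI arrays without overlap, an order in part built in by the choice on KO detection.

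The 2 brightest WT MI probes were detected in the knockout too. ASMM10P053276 lay at -4.25, -4.27 and -4.59 in KO sham, where 2 arrays were well above background, and at -2.50, -0.75 and -3.91 in KO MI. ASMM10P001257 was detected on no KO sham array, at -4.83, -4.67 and -5.62, and on 2 KO MI arrays, at -3.10, -1.40 and -5.37. KO MI replicate 2 was the highest and replicate 3 the lowest for both, and for the second probe the groups overlapped. The KO differences were 1.98 (SE 0.94) and 1.75 (SE 1.06), with adjusted p of 0.55 and 0.62 in limma. Against WT MI, the KO MI means were lower by a log2 difference of -2.72 and -2.81, values that were not tested because the WT MI arrays chose the probes.

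Among the 52 probes detected on no KO array, the brightest in WT MI was ASMM10P053760. It lay at -2.31, -1.63 and -2.82 in WT MI, at -6.88, -6.92 and -6.06 in KO sham and at -4.50, -4.87 and -6.38 in KO MI. ASMM10P026889, next in order, lay at -1.90, -2.26 and -2.60 in WT MI, at -6.93, -6.60 and -6.76 in KO sham and at -6.72, -5.87 and -5.78 in KO MI. Every WT MI array was higher than every KO array for both probes. The choice required detection on all WT MI arrays and on no KO array, so this order was largely built in and was not tested. In WT sham they lay at -6.56, -4.54 and -5.82 and at -4.59, -4.49 and -5.74, and the WT lower bounds were 4.30-fold and 4.27-fold.

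The KO arrays took no part in choosing the probes, so KO MI against KO sham was the comparison tested. All 348 probes passed the filter on dim probes through the WT MI group, by the rule itself. At an adjusted p under 0.05 in limma 0 of the 348 were called, and 0 of all 52300 probes tested (0.0%). At an unadjusted p under 0.05 there were 45 higher in KO MI (12.9%), against 3.66% of all probes tested, and 8 lower (2.30%), against 5.70%. Leaving out single arrays moved the number higher. It was largest without KO MI replicate 2, at 85 (24.4%), against 6.00% of all probes, with 8 lower. It was smallest without KO MI replicate 3, at 33 (9.48%), against 2.93%, with 10 lower. Quantile scaling, median centring and the authors' values gave 35, 36 and 32 higher. The direction flipped under normexp background correction, with 0 higher and 55 lower at that p, against 1.38% and 9.89% of all probes. Adding array weights estimated gene by gene called 32 of the 348, 26 higher and 6 lower, but also 3187 of all 52300 probes, 872 higher (1.67%) and 2315 lower (4.43%). A single one of the 348 was called in a fit of the KO arrays alone and without WT MI replicate 1.

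The difference between KO MI and KO sham had a median of 0.23 over the 348 probes, with quartiles of -0.07 and 0.56, and of 0.01 over all ASMM probes. It was positive for 241 of 348 (69.3%) and for 51.6% of all ASMM probes. Under normexp the median turned to -0.12 with 17.5% positive, where the ASMM probes tested had a median of -0.06 with 32.6% positive. Under the remaining scalings the median of the 348 lay between 0.15 and 0.17. Within slide 1, where the KO groups also differed in age, it lay at 0.27. For the 100 probes with a WT bound over 2-fold the median was 0.46, with 82 positive. Under normexp it was -0.07 with 37 positive, near the values of the ASMM probes tested.

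Arrays of both KO groups did not overlap for 55 of the 348 probes. Over both directions this share was near that of all ASMM probes and above that of probes not detected in WT sham. Only the split by direction departed from all ASMM probes. All 3 KO MI arrays lay above all 3 KO sham arrays for 44 (12.6%), against 7.33% of all ASMM probes and 6.38% of those not detected in WT sham. They lay below for 11 (3.16%), against 8.44% and 4.05%. Median differences were 0.06, 0.05 and 0.08 for the probes not detected in WT sham that were detected on 0, 1 and 2 WT MI arrays.

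KO sham and WT sham differed in the same direction as surgery did in WT. The newly detected probes were higher in KO sham than in WT sham by a median of 0.25, and 246 of 348 (70.7%) lay above 0, against 52.0% of all ASMM probes. After MI the KO level was lower than the WT level by a median difference of -0.70, and 315 of 348 (90.5%) lay below 0, against 47.3%. Both comparisons use the WT arrays that chose the probes as low in sham and high in MI, so these signs are in part built in and were not tested. The WT MI mean was the highest of the 4 group means for 306 probes (87.9%), and the WT sham mean the lowest for 238 (68.4%).

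The reverse set of 57 probes was detected on most KO arrays of either surgery: 40, 46 and 47 of its probes in KO sham replicates 1 to 3, and 53, 54 and 41 in KO MI. Its shares, 70.2% to 94.7%, were above those of the newly detected probes on each of the 6 KO arrays. They lay on both sides of the 85.2% to 87.5% of all ASMM probes detected on these arrays. The level medians were -3.89 ± 0.07 in WT sham, -4.82 ± 0.27 in WT MI, -4.14 ± 0.09 in KO sham and -4.09 ± 0.14 in KO MI (SD, n = 3 each). Both KO groups lay between the WT groups here as well, nearer to WT sham. The WT arrays chose these probes as high in sham and low in MI, so this position was in part built in. The fold bound over WT MI had a median of 1.53-fold and exceeded 2-fold for 8 probes and 4-fold for 1. On the KO arrays 0 of the 57 were called in limma after adjustment, 5 were higher (8.77%, against 3.66% of all probes) and 1 lower (1.75%, against 5.70%) at an unadjusted p under 0.05. The median difference was 0.10, and under normexp -0.13, where the ASMM probes tested had -0.06. The 5 higher became 0 under quantile scaling, the authors' values, normexp and without KO sham replicate 1, 1 under median centring and without KO MI replicate 2, and 9 without KO sham replicate 3.

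The brightest reverse probe in WT sham, ASMM10P031787, lay at -1.51, -1.63 and -4.05 there and at -5.25, -4.82 and -4.36 in WT MI. In the knockout it lay at -4.92, -4.10 and -4.05 after sham and at -4.46, -3.59 and -4.57 after MI. WT sham replicates 1 and 2 stood apart from the remaining 10 arrays. ASMM10P022326 lay at -2.49, -2.11 and -3.07 in WT sham, at -5.39, -5.45 and -4.72 in WT MI, and between -5.15 and -4.30 on all KO arrays, so that only the WT sham arrays were high.

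Position and ID showed little that set the newly detected probes apart. Their ID numbers were scattered over the design, with 0 pairs of consecutive numbers. IDs with the letters UP made up 11 of the 348 (3.16%), against 3.57% of the probes not detected in WT sham and 1.56% of all ASMM probes. On the array, 60 of the 348 (17.2%) lay in the outer 10 rows or columns, against 16.7% of all ASMM probes. Under the same rule 7 of 1104 human-named lincRNA probes (0.634%), 4 of 649 mouse-named lincRNA probes (0.616%) and 0 of 83 lincRNA exon probes were newly detected, beside 0.589% of the ASMM class.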

How the data were processed

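Per the file headers, Agilent Feature Extraction (11.0.1.1) gave the deposited intensity and the flags of each spot; the processed signal is corrected for background and for spatial trends inside an array, not between arrays. The authors' deposited values, an alternative, were taken as log2 because they correlate with log2 scanner signal at 0.9988 or more; the sources used here name no normalization, and scale and centring between arrays stay unknown.

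For levels, the 75th percentile of non-control spots was subtracted from the log2 processed signal of each array. Normexp used median spot and background signals. Outlier spots were set missing (35 to 66 per array, 1 of them a spot of the 348 probes). Detection limits are the lowest signal among probes well above background. Groups were compared with limma 3.58.1 (R 4.3.3) in 1 fit of all 12 arrays with a mean per group, over 52300 probes well above background on all arrays of at least 1 group, adjusted after Benjamini-Hochberg. The fit was tested on simulated data. The number of arrays limits the precision.

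Members, lists and named probes were chosen with earlier results of these data known. Named were the 2 brightest newly detected probes in WT MI; the 2 with the largest KO difference among those detected on all KO MI and no KO sham arrays; the 2 brightest detected on no KO array; the 2 dimmest; and the 2 brightest of the reverse set. Alternatives were other detection limits, scalings, filters, eBayes settings, array weights, slide, age and replicate terms and leaving out arrays; the common limit and the split at a 2-fold bound were chosen after seeing the data.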

Additional observations from a re-analysis of the deposited data

How the results depend on the processing

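With the weaker flag, 153 probes were newly detected and 24 the reverse; of the 348, 338 were detected on all KO MI and 319 on all KO sham arrays. Above the 99th percentile of the negative control spots the counts were 2152 newly detected and 1 the reverse in WT, 1 and 493 in the knockout, and 1 and 30 of the 348 on all KO MI and all KO sham arrays. With the common limit the reverse set held 150, the KO rule gave 61, and 44 and 32 of the 348 were on all KO MI and all KO sham arrays. Under the arrays' own limits these counts were 31 and 16 of the 100 probes over a 2-fold bound. The cause was not tested.

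Leaving out single arrays gave 365 to 770 newly detected probes and 79 to 160 reverse probes in WT, 61 to 121 and 62 to 157 in the knockout, 122 to 157 of the 348 on the remaining KO MI arrays and 81 to 138 on the remaining KO sham arrays, and 0 to 1 calls in KO MI against KO sham. When the WT arrays of the rule were left out instead, 98 to 254 newly detected probes were on all KO MI and 75 to 214 on all KO sham arrays (254 and 214 without WT sham replicate 2, 150 on KO MI without WT sham replicate 3, 146 and 127 without WT MI replicate 3). A detection rule on fewer arrays is easier to meet by construction. The medians stayed between 0.16 and 0.30 (KO MI minus KO sham), -0.80 and -0.53 (KO MI minus WT MI) and 1.13 and 1.31 (WT MI minus WT sham).

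Under normexp the median KO difference was -0.12, against -0.06 over the ASMM probes tested. The medians of KO MI minus WT MI, WT MI minus WT sham and the WT MI level relative to all ASMM probes shrank to -0.24, 0.41 and -0.95 from -0.70, 1.22 and -1.92. What caused these shifts was not tested. The KO median was 0.46 for probes over a 2-fold bound. Array weights called 32 newly detected and 3 reverse probes among 3187 of 52300 probes, and the fit of the KO arrays alone called 1, its only call. With the replicate number as a block 0 were called and the median was 0.23; the numbers pair no animals (correlations of deviations 0.165, 0.022 and -0.142). Requiring every spot to be detected changed no count, since each probe has 1 spot.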
